A study of Mus musculus with 9 samples.

Results

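The genes described here make, take up, sense and export cholesterol: 31 genes were named as members, and 29 of them were measured among 19938 genes in all. A member was taken from the deposited table as a probe set (a group of array probes summarised together, called a probe here) that names only that gene. Where a gene had several such probes, the one with the highest mean over the 9 arrays was used. Acat2, which joins acetyl-CoA units, and Soat1, which stores cholesterol as esters, were not measured here. The measured members were 18 enzymes of cholesterol synthesis, 5 genes of the sterol-sensing SREBP system, 3 genes of uptake control, sterol transfer and oxysterol synthesis, and 3 genes of efflux.

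The study measured RNA of mouse dendritic cells, antigen-presenting cells grown in culture from bone marrow progenitors, on 9 arrays. LPS-treated JmjD2d knockdown cells (KD LPS), LPS-treated wild-type cells (WT LPS) and unstimulated wild-type cells (WT unstimulated) had 3 independent cultures each. JmjD2d, the product of Kdm4d, removes methyl groups from histone H3, and the title of the study asks which genes induced by LPS, the bacterial lipopolysaccharide that Toll-like receptors sense, depend on it. Progenitors of all 3 groups grew with 20 ng/ml of each of the cytokines IL-3, IL-6 and SCF, and became dendritic cells over 8 days in 4% GM-CSF supernatant, with SCF at 5 ng/ml for the first 4 days. Knockdown cells carried a retroviral hairpin against the JmjD2d coding sequence and were selected in 2 mM histidinol, whereas wild-type cells were untransduced. LPS was given at 100 ng/ml for 4 h. No array of a control hairpin or of unstimulated knockdown cells was analysed here, so the hairpin, the infection and the drug selection cannot be told apart.

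Cholesterol is built from acetyl-CoA by way of mevalonate, isoprenoid units, squalene and lanosterol. SREBP2, the transcription factor encoded by Srebf2, drives the genes of that route; when membranes hold enough sterol, INSIG proteins keep it and its escort SCAP in the endoplasmic reticulum. Oxysterols act in the opposite way on export: they activate the nuclear receptor LXR, which turns on the transporters ABCA1 and ABCG1. Ch25h, an enzyme known in macrophages and dendritic cells as a target of Toll-like receptor and interferon signalling, makes an oxysterol that both holds back SREBP processing and activates LXR.

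Promoters of 4 members whose arrays are described in detail are shown: Hmgcs1 because it holds an SREBP motif, and Idi1, Hsd17b7 and Dhcr7, which do not hold that motif in this window, for their CCAAT boxes. Each runs 5′ to 3′ along the gene's strand, from 250 bases before to 50 bases after a RefSeq transcription start in assembly GRCm38.p6. Capitals mark TCACNCCAC, a form of the sterol regulatory element bound by SREBP, and CCAAT, the box bound by NF-Y, on either strand, so that a box on the opposite strand reads ATTGG. Hmgcs1 lies at chr13:119690101-119690400 on the plus strand, and Idi1 at chr13:8885356-8885655 on the plus strand. Hsd17b7 lies at chr1:169969156-169969455 on the minus strand, and the start shown for Dhcr7, 1 of several that are listed, at chr7:143829964-143830263 on the plus strand. That Dhcr7 start is shown because it holds a marked motif. The Dhcr7 start listed at chr7:143822917-143823216 holds no CCAAT box.
Hmgcs1: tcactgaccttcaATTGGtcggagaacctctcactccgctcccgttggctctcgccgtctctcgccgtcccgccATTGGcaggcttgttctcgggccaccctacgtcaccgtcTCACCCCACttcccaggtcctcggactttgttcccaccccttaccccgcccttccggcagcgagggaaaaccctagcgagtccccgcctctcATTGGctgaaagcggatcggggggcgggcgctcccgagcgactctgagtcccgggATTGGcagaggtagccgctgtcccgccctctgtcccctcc
Idi1: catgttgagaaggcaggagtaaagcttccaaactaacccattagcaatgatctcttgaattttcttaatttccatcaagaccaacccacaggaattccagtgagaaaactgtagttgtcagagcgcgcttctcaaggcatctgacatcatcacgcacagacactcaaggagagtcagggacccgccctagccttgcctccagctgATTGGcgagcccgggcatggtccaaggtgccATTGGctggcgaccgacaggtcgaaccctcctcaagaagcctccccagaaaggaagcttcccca
Hsd17b7: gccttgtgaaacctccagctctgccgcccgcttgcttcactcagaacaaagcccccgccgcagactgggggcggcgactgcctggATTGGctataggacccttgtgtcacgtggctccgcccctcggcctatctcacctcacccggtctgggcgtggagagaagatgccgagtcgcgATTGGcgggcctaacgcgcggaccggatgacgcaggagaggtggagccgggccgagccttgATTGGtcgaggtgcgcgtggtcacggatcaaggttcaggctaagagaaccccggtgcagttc
Dhcr7: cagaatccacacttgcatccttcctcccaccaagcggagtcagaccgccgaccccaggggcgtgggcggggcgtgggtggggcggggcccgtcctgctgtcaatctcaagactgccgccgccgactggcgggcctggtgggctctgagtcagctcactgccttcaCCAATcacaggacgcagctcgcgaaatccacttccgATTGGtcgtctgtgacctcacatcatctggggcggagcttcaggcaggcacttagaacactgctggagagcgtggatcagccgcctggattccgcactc

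A promoter was at hand for 26 of the 31 members. The sterol element was found in 1 of them, Hmgcs1, where its first base is at position -137 relative to the start, and in 1.44% of the 27025 genes with a promoter in the table. CCAAT was more frequent: 21 of 26 members held it (80.8%), against 41.1% of all genes with a promoter, and so did 15 of 16 synthesis enzymes but 0 of 2 efflux genes. Those 16 include Acat2, which was not measured on the arrays and held no CCAAT box. The GC box GGGCGG, bound by Sp1, was in 22 of 26 members (84.6%), against 38.2% of all genes. GAAANNGAA, the core of the interferon-stimulated response element, was in 3 of 26 members (11.5%), namely Apoe, Ggps1 and Ebp, against 9.76% of all genes. Both strands were searched, a gene counted when any listed start held the motif, and a match describes these letters only.

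Kdm4d, against which the hairpin is directed, was lower in KD LPS than in WT LPS cells, but the difference did not pass the test. Its log2 values were 7.43, 7.11 and 7.40 in KD LPS cells, against 7.79, 7.54 and 7.74 in WT LPS cells and 7.24, 7.65 and 7.62 in WT unstimulated cells. The LPS-treated groups did not overlap, and the KD LPS minus WT LPS difference was -0.37 ± 0.13 (SE, n = 3 each; limma, adjusted p = 0.278). The KD LPS values did overlap those of WT unstimulated cells. Itgax, the CD11c gene that marks dendritic cells, lay between 12.29 and 13.30 on all 9 arrays, while probes for Zbtb46 lay between 7.32 and 8.27 and for Flt3 between 6.49 and 7.05. Adgre1, a macrophage gene, lay between 12.96 and 13.55. Levels of different probes cannot be ranked against each other.

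LPS changed 5 of the 29 measured members in wild-type cells: Ch25h and Idi1 rose, while Dhcr7, Abcg1 and Ebp fell. A change here is an adjusted p under 0.05 in limma, adjusted over all 19938 genes, in a fit without the replicate numbers as a block. The share of all genes that rose was 3.99%, beside the 2 members, and the share that fell was 6.86%, beside the 3 members. The cultures that share a number deviated together, so a paired fit is given wherever it changes the call of a member. For genes of the other lists it is given only in part. It called 9 members higher, against 5.19% of all genes, and 3 lower, against 9.57%. The median difference of the members was 0.20 on the log2 scale, and that of all genes 0.04. Differences were above 0 for 18 of 29 members (62.1%), against 59.7% of all genes. Without KD LPS array 2 or WT LPS array 2 the unpaired fit called 6 members higher, and without WT LPS array 1 or 3 or unstimulated array 1 or 3 it called 1 higher, Ch25h, and 0 lower. Of the members, 8 lay wholly above and 4 wholly below their unstimulated values, against 12.8% and 16.5% of all genes.

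**Figure D1:**
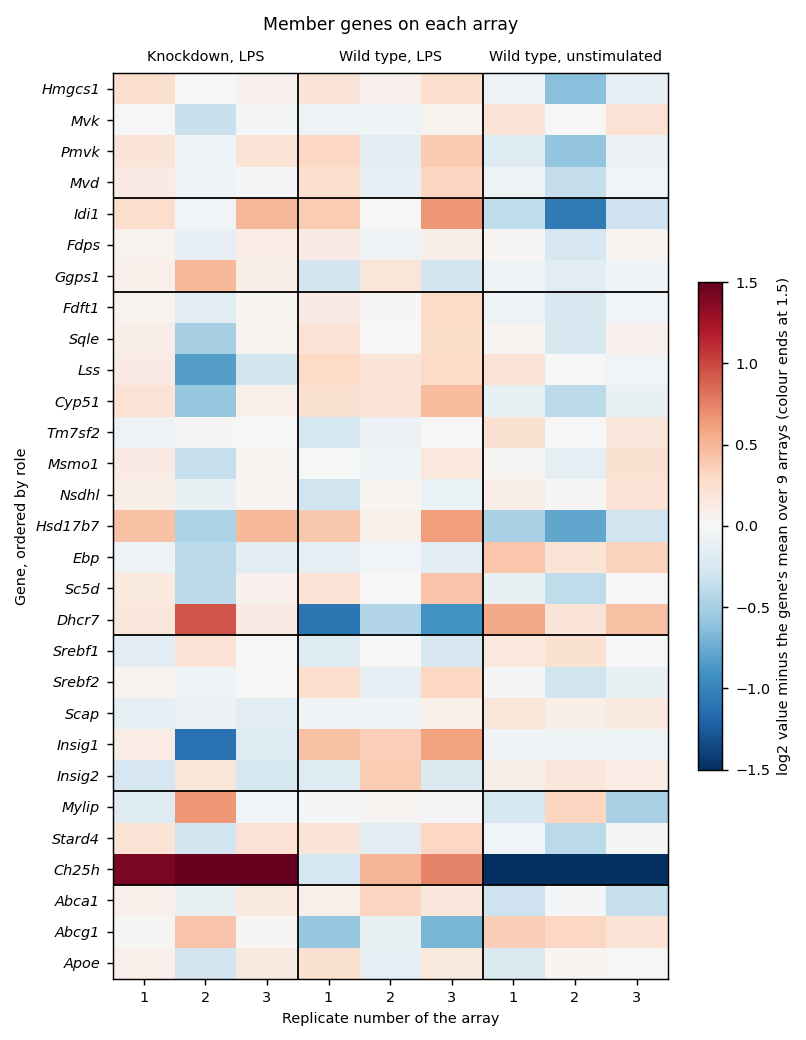
Log2 level of each of the 29 measured members (rows, grouped by role) on each of the 9 arrays (columns, KD LPS, then WT LPS, then WT unstimulated, 3 arrays each), shown as the deviation from that gene's mean over the arrays. Ch25h spans the widest range, from 7.18 on a WT unstimulated array to 11.13 on a KD LPS array, and Dhcr7 is lowest on the 3 WT LPS arrays.

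Ch25h, cholesterol hydroxylase, had the largest LPS difference of the members. It stood at 9.09, 9.86 and 10.09 in WT LPS cells, against 7.34, 7.18 and 7.77 in WT unstimulated cells. Every WT LPS array was above every unstimulated one by more than a log2 unit. The difference was 2.25 ± 0.26 (SE, n = 3 each; 95% interval 1.66 to 2.84; 4.77-fold; adjusted p = 0.00194), and it passed the test whichever array was left out (adjusted p 0.00222 to 0.0125).

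Among the 4 measured enzymes that lead to and through mevalonate, none passed the test after LPS without pairing, and 2 did with it. Hmgcs1, which makes the precursor of mevalonate, had 12.51, 12.38 and 12.57 in WT LPS cells, against 12.24, 11.69 and 12.19 in WT unstimulated cells. The groups did not overlap, and unstimulated array 2 was the lowest of the set. Its difference of 0.45 ± 0.15 (SE, n = 3 each) had an adjusted p of 0.0912, and 0.0303 in the paired fit. Pmvk, phosphomevalonate kinase, had 9.69, 9.21 and 9.77 in WT LPS cells, against 9.18, 8.79 and 9.29 in WT unstimulated cells. The groups overlapped, but each pair differed by a similar amount, 0.50, 0.42 and 0.47. The mean difference of 0.46 ± 0.18 had an adjusted p of 0.14, and 0.00994 in the paired fit. Mvd, which makes the first isoprenoid unit, differed by 0.30 ± 0.13 (adjusted p = 0.183; paired, 0.0654) and Mvk, mevalonate kinase, by -0.17 ± 0.10 (adjusted p = 0.331; paired, 0.213).

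Idi1, the isomerase that makes isoprenoid units ready for joining, rose after LPS. It had 12.33, 11.95 and 12.60 in WT LPS cells, against 11.56, 10.88 and 11.63 in WT unstimulated cells. All WT LPS arrays were above all unstimulated ones. The difference was 0.94 ± 0.24 (SE, n = 3 each; 95% interval 0.38 to 1.49; 1.91-fold; adjusted p = 0.0434; paired, 0.00183). A further probe for Idi1 gave 0.91. The call was lost when any of 7 arrays was left out (adjusted p 0.056 to 0.152) and kept without KD LPS array 2 or WT LPS array 2. The other isoprenoid enzymes, Fdps and Ggps1, which join units into longer chains, differed by 0.12 and -0.03 (adjusted p = 0.478 and 0.912).

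In the squalene and sterol steps, 2 of 11 enzymes fell after LPS, Dhcr7 and Ebp, and 4 rose in the paired fit only, Fdft1, Cyp51, Hsd17b7 and Sc5d. Dhcr7, the reductase of the last step to cholesterol in one branch of the route, had 8.65, 9.29 and 8.83 in WT LPS cells, against 10.30, 9.93 and 10.18 in WT unstimulated cells. The groups were apart, with the smallest gap in pair 2. The difference was -1.21 ± 0.24 (SE, n = 3 each; 95% interval -1.77 to -0.66; 2.31-fold lower; adjusted p = 0.0173; paired, 0.0157). Ebp, the isomerase that moves a double bond in the sterol ring, had 10.65, 10.74 and 10.62 in WT LPS cells, against 11.20, 10.99 and 11.13 in WT unstimulated cells. These groups did not overlap either, and the difference was -0.44 ± 0.10 (95% interval -0.66 to -0.22; 1.36-fold lower; adjusted p = 0.0242; paired, 0.023). Leaving out WT LPS array 1 or 3 or unstimulated array 1 or 3 ended both calls (adjusted p up to 0.0732 for Dhcr7 and up to 0.0955 for Ebp).

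The sterol-step enzymes that passed only with pairing all leaned upward after LPS. Hsd17b7, which reduces a ketone on the sterol ring, had 12.48, 12.15 and 12.71 in WT LPS cells, against 11.59, 11.30 and 11.78 in WT unstimulated cells. The groups did not overlap and the pairs differed by 0.89, 0.85 and 0.94. The difference was 0.89 ± 0.27 (SE, n = 3 each; 1.86-fold; adjusted p = 0.0689; paired, 0.00707). Cyp51, lanosterol demethylase, had 11.69, 11.65 and 11.93 in WT LPS cells, against 11.34, 11.06 and 11.35 in WT unstimulated cells. All WT LPS values were higher, and the difference was 0.51 ± 0.20 (adjusted p = 0.143; paired, 0.0495). Fdft1, squalene synthase, had 12.89, 12.78 and 13.05 in WT LPS cells, against 12.69, 12.53 and 12.73 in WT unstimulated cells. These groups were also apart, by a difference of 0.26 ± 0.10 (adjusted p = 0.135; paired, 0.0403), and a further probe gave 0.34. Sc5d, a sterol desaturase, had 11.98, 11.77 and 12.19 in WT LPS cells, against 11.65, 11.38 and 11.77 in WT unstimulated cells. The lowest WT LPS array tied with the highest unstimulated one, and the difference was 0.38 ± 0.17 (adjusted p = 0.199; paired, 0.0244).

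The other 5 enzymes of these steps passed neither fit after LPS. Differences were 0.22 for Sqle, squalene epoxidase, and 0.20 for Lss, which closes squalene epoxide into lanosterol. Msmo1 and Nsdhl, which remove methyl groups from the ring, differed by -0.00 and -0.22, and Tm7sf2, a sterol reductase, by -0.25. Over the 18 synthesis enzymes, the median LPS difference was 0.21, with 11 above 0 (61.1%), against 59.7% of all genes. Counts were 1 higher and 2 lower without pairing, against 3.99% and 6.86% of all genes. With pairing they were 7 higher and 2 lower, against 5.19% and 9.57%.

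**Figure D2:**
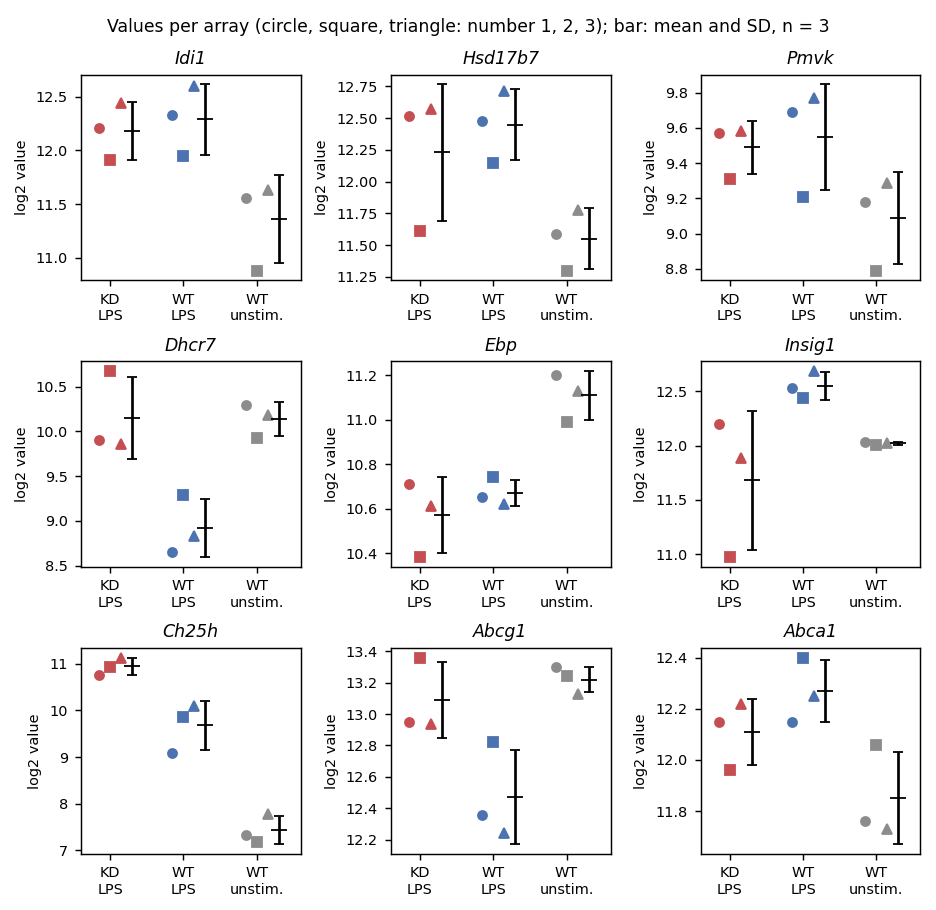
Log2 level on each array (circle, square and triangle for replicate numbers 1, 2 and 3) and group mean with SD (bars, n = 3) for 9 members, each on its own scale, with KD LPS left, WT LPS in the middle and WT unstimulated right. Ch25h is highest in KD LPS cells and lowest in WT unstimulated cells, whereas WT LPS is the lowest group for Dhcr7 and Abcg1.

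No gene of the SREBP system passed either fit after LPS in wild-type cells. The groups were nonetheless apart for Insig1 and Scap. Insig1, which retains SREBP and is itself an SREBP target, had 12.53, 12.44 and 12.69 in WT LPS cells, against 12.03, 12.01 and 12.02 in WT unstimulated cells. All WT LPS arrays were higher, and the difference was 0.53 ± 0.27 (SE, n = 3 each; adjusted p = 0.243; paired, 0.178). That standard error comes from all 9 arrays, including the KD LPS arrays, on which Insig1 spread from 10.97 to 12.20. Without KD LPS array 2 the adjusted p was 0.0139. Srebf2 differed by 0.29 and Srebf1, which encodes the SREBP of fatty acid synthesis, by -0.27 (adjusted p = 0.177 and 0.164). Scap had 10.02, 10.02 and 10.15 in WT LPS cells, against 10.25, 10.17 and 10.22 in WT unstimulated cells. All WT LPS arrays were lower, by a difference of -0.15 ± 0.06 (adjusted p = 0.151; paired, 0.197), and Insig2 differed by -0.13.

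Of the efflux genes, Abcg1 fell after LPS and Abca1 was just outside the threshold. Abcg1, which passes cholesterol to high-density lipoprotein, had 12.36, 12.82 and 12.24 in WT LPS cells, against 13.30, 13.24 and 13.13 in WT unstimulated cells. All WT LPS arrays were lower. The difference was -0.75 ± 0.17 (SE, n = 3 each; 95% interval -1.13 to -0.37; 1.68-fold lower; adjusted p = 0.0249; paired, 0.00845). Leaving out WT LPS array 1 or 3 or any unstimulated array ended the call (adjusted p 0.0558 to 0.0956). Abca1, which loads cholesterol onto apolipoproteins, had 12.15, 12.40 and 12.25 in WT LPS cells, against 11.76, 12.06 and 11.73 in WT unstimulated cells. These groups were apart in the other direction, by 0.42 ± 0.11 (95% interval 0.16 to 0.67; adjusted p = 0.0507; paired, 0.0605). Abca1 was called with the lowest 25% of genes left out (adjusted p = 0.044), with an intensity trend (adjusted p = 0.048), without KD LPS array 2 (adjusted p = 0.0416) and without unstimulated array 2 (adjusted p = 0.0208), and not with quantile normalization (0.37, adjusted p = 0.0711) or without any other array (adjusted p up to 0.16). Apoe, an apolipoprotein, differed by 0.14.

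Stard4, a sterol carrier in the cytosol, and Mylip, the ubiquitin ligase that removes lipoprotein receptors, complete the list. Stard4 had 10.51, 10.16 and 10.63 in WT LPS cells, against 10.28, 9.91 and 10.29 in WT unstimulated cells. The groups overlapped while each pair differed upward, by 0.23, 0.24 and 0.35. The difference of 0.27 ± 0.18 (SE, n = 3 each) had an adjusted p of 0.369, and 0.0326 in the paired fit. Mylip differed by 0.14.

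After LPS, none of the 29 members differed between KD and WT cells in limma without pairing, against 0.401% of all genes called higher and 0.361% called lower. At an unadjusted p under 0.05, 4 members were higher and 2 lower, against 7.32% and 5.79% of all genes. The paired fit called 3 members higher, Ch25h, Dhcr7 and Abcg1, against 1.51% of all genes, and none lower, against 1.24%. The median of the members was -0.10 on the log2 scale, and that of all genes -0.03. Differences were above 0 for 8 of 29 members (27.6%), against 40.6% of all genes. Groups were apart for 3 members upward and 3 downward, against 8.21% and 8.38% of all genes. Both this comparison and the LPS comparison use the WT LPS arrays, so a shift of those arrays enters them with opposite signs.

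Dhcr7 had 9.91, 10.68 and 9.86 in KD LPS cells, against 8.65, 9.29 and 8.83 in WT LPS cells. All KD LPS arrays were higher, with 1.26, 1.39 and 1.03 between paired arrays. The difference was 1.22 ± 0.24 (SE, n = 3 each; 95% interval 0.67 to 1.78; 2.34-fold; adjusted p = 0.0699; paired, 0.0435). It passed the unpaired test without WT LPS array 2 (1.41, adjusted p = 0.0428) and after quantile normalization (1.17, adjusted p = 0.0466). With any of the other 8 arrays left out it did not pass (adjusted p 0.0808 to 0.226). Set against WT unstimulated cells, Dhcr7 in KD LPS cells differed by 0.01 ± 0.24 (95% interval -0.54 to 0.57; adjusted p = 0.991).

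Ch25h had 10.76, 10.93 and 11.13 in KD LPS cells, against 9.09, 9.86 and 10.09 in WT LPS cells. The groups did not overlap, and the paired arrays differed by 1.67, 1.07 and 1.03. The difference was 1.26 ± 0.26 (SE, n = 3 each; 95% interval 0.67 to 1.85; 2.39-fold; adjusted p = 0.0753; paired, 0.0215). It failed the unpaired test whichever array was left out (adjusted p 0.074 to 0.223). Abcg1 had 12.95, 13.36 and 12.94 in KD LPS cells, against 12.36, 12.82 and 12.24 in WT LPS cells. Again all KD LPS arrays were higher, by 0.62 ± 0.17 (95% interval 0.24 to 0.99; 1.53-fold; adjusted p = 0.144; paired, 0.0439). Without WT LPS array 2 Abcg1 passed the unpaired test (0.79, adjusted p = 0.0423). With any of the other 8 arrays left out it did not (adjusted p 0.18 to 0.391).

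Insig1, Lss and Scap were the members whose KD LPS arrays all lay below the WT LPS arrays, and none of them passed either fit. Insig1 had 12.20, 10.97 and 11.89 in KD LPS cells, against 12.53, 12.44 and 12.69 in WT LPS cells. KD LPS array 2 was far below the other two, and the difference was -0.87 ± 0.27 (SE, n = 3 each; 95% interval -1.48 to -0.26; adjusted p = 0.197; paired, 0.111). Lss had 10.60, 9.65 and 10.20 in KD LPS cells, against 10.77, 10.66 and 10.77 in WT LPS cells. The pairs differed unevenly, by -0.17, -1.01 and -0.57, with a mean of -0.58 ± 0.21 (95% interval -1.06 to -0.11; adjusted p = 0.272; paired, 0.124). Scap, the escort of SREBP, had 9.94, 9.98 and 9.91 in KD LPS cells, against 10.02, 10.02 and 10.15 in WT LPS cells, a difference of -0.12.

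No synthesis enzyme that leaned upward after LPS in wild-type cells differed between KD LPS and WT LPS cells in either fit, and the sizes of the differences varied. Idi1 had 12.21, 11.91 and 12.44 in KD LPS cells, and its KD LPS minus WT LPS difference was -0.11 ± 0.24 (SE, n = 3 each; adjusted p = 0.88). Hsd17b7 had 12.52, 11.61 and 12.57 in KD LPS cells, with a difference of -0.21 ± 0.27 (adjusted p = 0.772). Hmgcs1 had 12.56, 12.31 and 12.38 in KD LPS cells, with a difference of -0.07 ± 0.15 (adjusted p = 0.871). Each of these overlapped the WT LPS arrays, and an adjusted p above the threshold does not show equal levels. Cyp51 had 11.67, 10.89 and 11.53 in KD LPS cells, a difference of -0.39 ± 0.20 (adjusted p = 0.45; paired, 0.202). Sc5d had 11.90, 11.37 and 11.82 in KD LPS cells, a difference of -0.29 ± 0.17 (adjusted p = 0.526; paired, 0.131). Fdft1 had 12.82, 12.61 and 12.79 in KD LPS cells, a difference of -0.17 ± 0.10 (adjusted p = 0.517; paired, 0.254). The KD LPS means of Cyp51, Sc5d and Fdft1 lay nearer to the WT unstimulated than to the WT LPS means, as the following means show. Cyp51 averaged 11.36 in KD LPS cells, against 11.76 in WT LPS cells and 11.25 in WT unstimulated cells. Sc5d averaged 11.69 in KD LPS cells, against 11.98 in WT LPS cells and 11.60 in WT unstimulated cells. Fdft1 averaged 12.74 in KD LPS cells, against 12.91 in WT LPS cells and 12.65 in WT unstimulated cells. KD LPS array 2 was the lowest KD LPS array for each, and without it the KD LPS mean of each lay nearer to the WT LPS mean. For Cyp51 the difference was then -0.15 from WT LPS and 0.35 from WT unstimulated cells. Sqle averaged 11.74 in KD LPS cells, against 12.03 in WT LPS cells and 11.81 in WT unstimulated cells, with a KD LPS minus WT LPS difference of -0.29 ± 0.17 (adjusted p = 0.511; paired, 0.149). Over the 18 enzymes the median difference was -0.09, and 4 were above 0 (22.2%), against 40.6% of all genes.

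**Figure D3:**
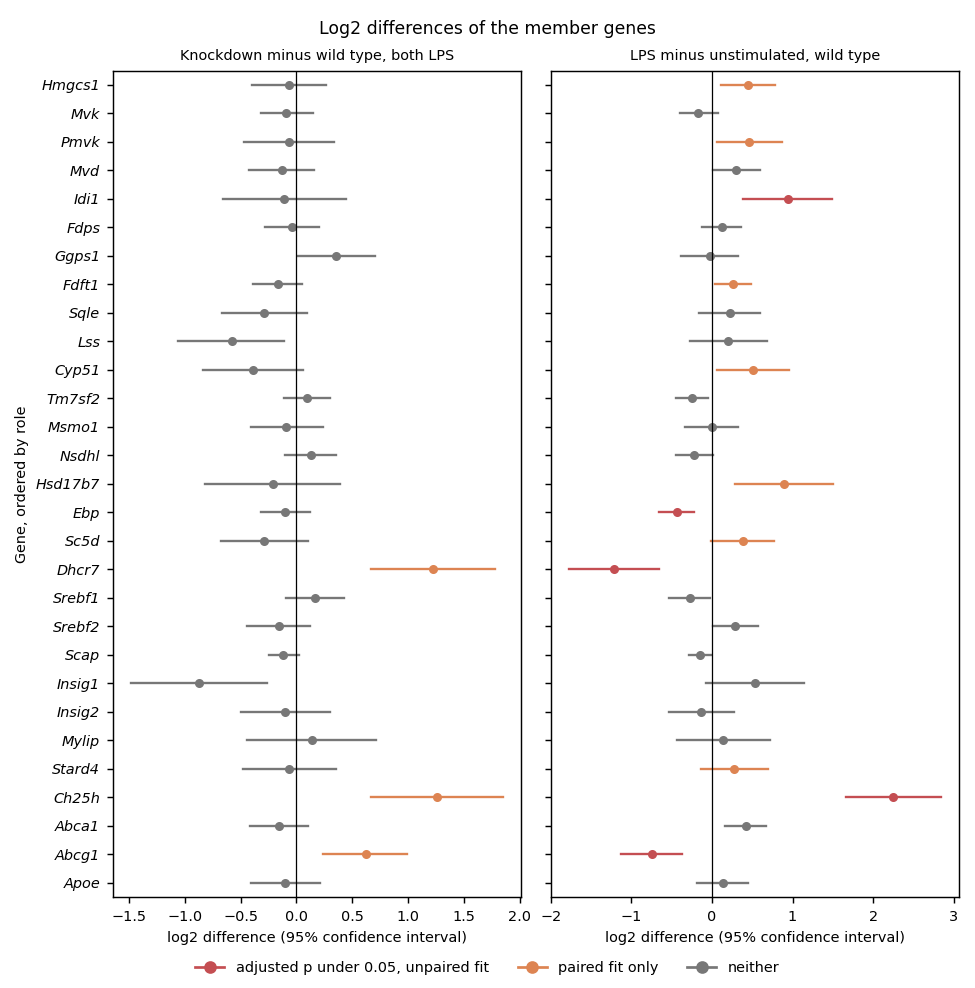
Log2 difference with its 95% interval (limma, n = 3 arrays a group) for each of the 29 measured members, for KD LPS minus WT LPS (left) and for WT LPS minus WT unstimulated (right), in red where the unpaired fit called a change and in orange where only the paired fit did. Dhcr7 and Abcg1 lie above 0 in the knockdown comparison and below 0 in the LPS comparison, while Ch25h lies above 0 in both; the comparisons share the WT LPS arrays.

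Set against WT unstimulated cells, KD LPS cells had 1 member higher, Ch25h, and 2 lower, Ebp and Scap, against 4.23% and 6.64% of all genes. This comparison is the sum of the others and brings no further arrays. Ch25h was 3.51 ± 0.26 higher (SE, n = 3 each; 95% interval 2.92 to 4.10; 11.4-fold; adjusted p = 0.000293). Ebp had 10.71, 10.38 and 10.61 in KD LPS cells, all below the unstimulated arrays given above, a difference of -0.54 ± 0.10 (1.46-fold lower; adjusted p = 0.00988). Both calls held whichever array was left out. Scap fell by a smaller amount, with a difference of -0.27 ± 0.06 (95% interval -0.40 to -0.13; adjusted p = 0.0239). Its call was lost without KD LPS array 1 or 3 or unstimulated array 1 or 3 (adjusted p up to 0.0955), with quantile normalization (adjusted p = 0.0592) and with an intensity trend (adjusted p = 0.0931).

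The paired fit called 4 members higher in KD LPS than in WT unstimulated cells, against 5.62% of all genes, and 2 lower, against 8.65%. Besides Ch25h, these were Idi1 (0.83 ± 0.24, SE, n = 3 each; adjusted p = 0.0651; paired, 0.00226), Hsd17b7 (0.68 ± 0.27; adjusted p = 0.163; paired, 0.0154) and Pmvk (0.40 ± 0.18; adjusted p = 0.23; paired, 0.0154). Pmvk had 9.57, 9.31 and 9.58 in KD LPS cells, above the unstimulated arrays. Hsd17b7 overlapped them through KD LPS array 2. The members' median was 0.08 and that of all genes 0.01.

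The arrays numbered 2 were low for many members in every group. For 14 of 29 members (48.3%), and for 11 of the 18 synthesis enzymes (61.1%), array 2 was the lowest of its 3 replicates in all 3 groups, against 6.96% of all genes; this was noticed after the values were seen. The mean deviation of the synthesis enzymes was 0.13, -0.16 and 0.08 on KD LPS arrays, 0.03, -0.02 and 0.16 on WT LPS arrays, and 0.01, -0.27 and 0.03 on WT unstimulated arrays. Within each group these values spread over more than the gap between the WT LPS and WT unstimulated means. Neutrophil markers, a list of 10, moved with the numbering: their mean log2 level was 9.91, 8.04 and 9.82 on KD LPS arrays, 10.59, 8.90 and 9.92 on WT LPS arrays, and 9.98, 8.39 and 8.77 on WT unstimulated arrays. Array 2 was the lowest in all 3 groups for 5 of those 10 genes. The same held for 3 of 14 dendritic cell markers, 3 of 11 macrophage markers and 2 of 10 mast cell and basophil markers. In bulk RNA, fewer cells of a type and less RNA per cell cannot be told apart, and the part of neutrophil RNA in the members' values was not tested.

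**Figure D4:**
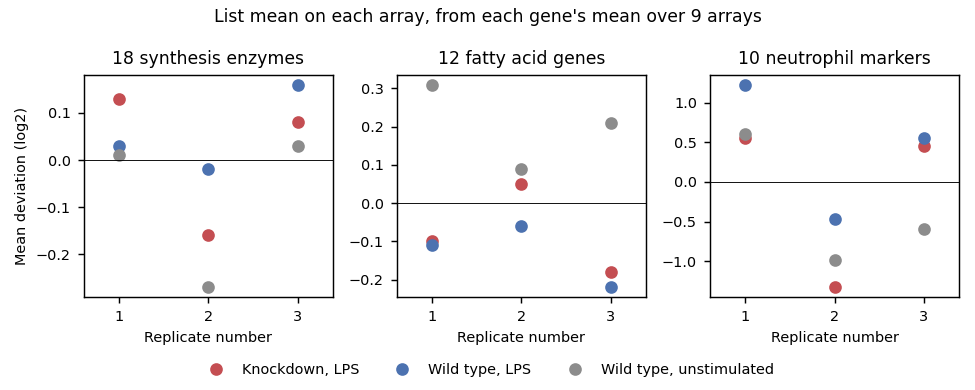
Mean deviation (log2, from each gene's mean over the 9 arrays) of the 18 synthesis enzymes, the 12 fatty acid genes and the 10 neutrophil markers, by replicate number, 1 point per array, with KD LPS in red, WT LPS in blue and WT unstimulated in grey; the vertical scales differ. The synthesis enzymes dip on array 2 of every group, to -0.16, -0.02 and -0.27, and so do the neutrophil markers.

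Some dendritic cell markers also differed between KD LPS and WT LPS cells. The mean log2 level of the 14 genes was 8.18 to 8.84 on KD LPS arrays, 9.21 to 9.68 on WT LPS arrays and 8.89 to 9.45 on WT unstimulated arrays. Of these, 1 was lower in KD LPS than in WT LPS cells without pairing, Cd86, against 0.361% of all genes. With pairing 7 were lower, Batf3, Irf4, Irf8, Ccr7, Cd83, Cd86 and H2-Ab1, against 1.24%, and the median difference was -0.54. Itgax, Flt3, Zbtb46, Dpp4, Clec9a and Xcr1 passed neither fit, nor did Cd24a, which averaged 12.38 in KD LPS and 12.01 in WT LPS cells. The mean of 11 macrophage markers was 11.12 to 11.85 on KD LPS arrays, 11.30 to 11.79 on WT LPS arrays and 11.01 to 11.46 on WT unstimulated arrays. Without pairing 1 of them, Spic, was higher in KD LPS than in WT LPS cells, against 0.401% of all genes. No other macrophage marker passed either fit in this comparison, and their differences went in both directions. Csf1r averaged 12.12 in KD LPS and 12.77 in WT LPS cells, and Cd14 averaged 12.52 and 13.03, both without overlap. Mertk, also without overlap, averaged 11.94 in KD LPS and 11.23 in WT LPS cells. For 10 mast cell and basophil markers the mean was 6.31 to 6.68 on KD LPS arrays, 7.05 to 7.45 on WT LPS arrays and 6.67 to 6.95 on WT unstimulated arrays. Of these, 0 were lower in KD LPS than in WT LPS cells in limma without pairing, against 0.361% of all genes. At an unadjusted p under 0.05, 5 were lower, against 5.79%. The paired fit called 3 lower, Kit, Cpa3 and Gata2, against 1.24%. In all, 6 lay wholly below their WT LPS values, against 8.38%, and the median difference was -0.29. Mcpt4, Mcpt8, Tpsb2, Cma1, Fcer1a and Ms4a2 were dim, between 4.76 and 6.85 on every array. Hdc, which LPS raised in wild-type cells, averaged 9.82 in KD LPS, 12.16 in WT LPS and 8.93 in WT unstimulated cells. The part of these cell types in the differences of Dhcr7, Ch25h and Abcg1 was not tested.

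Other genes of cholesterol handling were taken from lists apart from the members. Of 11 measured genes of efflux, oxysterols and LXR (13 listed), 1 rose and 1 fell after LPS in wild-type cells, against 3.99% and 6.86% of all genes. The paired fit called 1 higher and 2 lower, against 5.19% and 9.57%. Rxra was lower in the paired fit only, with a mean of 8.52 in WT LPS and 9.33 in WT unstimulated cells. Nr1h3, which encodes LXR alpha, had 10.73, 10.83 and 11.20 in KD LPS cells, 9.30, 9.77 and 10.47 in WT LPS cells, and 8.35, 9.01 and 8.84 in WT unstimulated cells. Neither step of this order had overlapping groups. LPS raised it by 1.11 ± 0.29 (SE, n = 3 each; adjusted p = 0.0469), a call lost when any of 8 arrays was left out (adjusted p up to 0.153). KD LPS cells were 1.07 ± 0.29 above WT LPS cells (adjusted p = 0.149; paired, 0.0345), and 2.18 ± 0.29 above WT unstimulated cells (adjusted p = 0.00321). Nceh1, a cholesterol ester hydrolase, fell after LPS by 0.78 ± 0.13 (adjusted p = 0.00732).

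Lpcat3, an LXR target that remodels membrane phospholipids, was the gene of these pathway lists that differed between KD LPS and WT LPS cells without pairing. It had 12.81, 13.00 and 12.90 in KD LPS cells, against 12.35, 12.52 and 12.40 in WT LPS cells and 12.43, 12.61 and 12.51 in WT unstimulated cells. All KD LPS arrays were above all others. The KD LPS minus WT LPS difference was 0.48 ± 0.08 (SE, n = 3 each; adjusted p = 0.0395; paired, 0.0137), and the call was lost when any of 7 arrays was left out (adjusted p up to 0.146).

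Of 12 measured genes of uptake and intracellular transport (15 listed), 2 rose and 2 fell after LPS, against 3.99% and 6.86% of all genes. Gramd1b and Gramd1a, which carry cholesterol from the plasma membrane to the endoplasmic reticulum, rose by 0.75 ± 0.14 and 1.00 ± 0.26 (SE, n = 3 each; adjusted p = 0.0134 and 0.0468). Scarb1, the receptor of high-density lipoprotein, fell by 0.68 ± 0.16 (adjusted p = 0.0276), and Npc1, which exports cholesterol from lysosomes, fell by 0.41 ± 0.06 (adjusted p = 0.00616). The calls of Npc1 held whichever array was left out, and those of Scarb1, Gramd1a and Gramd1b were lost without any of 5, 8 and 3 arrays (adjusted p up to 0.109, 0.153 and 0.0617). In KD LPS cells Scarb1 was 0.67 ± 0.16 above WT LPS cells (adjusted p = 0.0995; paired, 0.0368).

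Of 6 measured further genes of synthesis and SREBP control (12 listed), 1 fell after LPS, against 6.86% of all genes. This was Mbtps1, the first protease that cuts SREBP, with a difference of -0.47 ± 0.10 (SE, n = 3 each; adjusted p = 0.0253). Its call was lost without any of 4 arrays (adjusted p up to 0.0935). The fatty acid genes driven by SREBP leaned the other way from the cholesterol enzymes. Of 12, all measured, 2 fell after LPS, against 6.86% of all genes, and 4 in the paired fit, against 9.57%. Their median was -0.35, against 0.21 for the synthesis enzymes and 0.04 for all genes. The difference between the lists was not tested. Scd2, a fatty acid desaturase, fell by 0.42 ± 0.09 (adjusted p = 0.02) and Fads1, a desaturase of polyunsaturated fatty acids, fell by 0.62 ± 0.15 (adjusted p = 0.0338). Both calls were lost without any of several arrays, 5 for Scd2 and 6 for Fads1 (adjusted p up to 0.0707 and 0.126). None of the 12 differed between KD LPS and WT LPS cells in either fit.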

How the data were processed

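RNA of 9 cultures was hybridised to Affymetrix mouse gene arrays, 3 per group. The deposited log2 values were made by the authors with RMA, per the submitters' processing notes, and array medians lay between 7.217 and 7.315; no further normalization was applied. Their number limits the precision.

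Of 35556 probes, 21789 named 1 gene in the platform annotation, 1621 several and 12146 none; 21698 symbols were updated through the RefSeq table of assembly GRCm38.p6 and 91 kept. The probe with the highest mean stood for each of 19938 genes.

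Group means were fitted with limma 3.58.1 in R 4.3.3 (empirical Bayes, 6 residual and 2.31 prior degrees of freedom), with two-sided tests and Benjamini-Hochberg adjustment over all genes; a call is an adjusted p under 0.05. Only the unpaired fit was tested on simulated data. The simulated arrays varied independently, without the shared deviations by replicate number described below.

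Replicate numbers come from the sample titles. Deviations from group means correlated at 0.138 to 0.481 between arrays sharing a number and at -0.414 to 0.254 between others, so a paired fit with the number as a block is reported; the labels do not say what a number shares.

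Members and lists were chosen with earlier results of these data known. Array values of both groups are given for members that passed either fit in a comparison or differed there by at least 0.5 (log2). The same holds for Abca1 after LPS, which was chosen after its values were seen. From each pathway list, at most 4 genes that passed per comparison are named. Alternatives were the paired fit, quantile normalization, leaving out the lowest 25% of genes, averaging probes, an intensity trend and leaving out each array in turn.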

Additional observations from a re-analysis of the deposited data

How the results depend on the processing

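Members called after LPS in wild-type cells (2 higher and 3 lower of 29) became 9 higher with the replicate block, 3 higher (with Abca1) without the lowest genes or with an intensity trend and, with all arrays numbered 2 left out (chosen after seeing the data), 13 higher and 6 lower; leaving out each array in turn gave 1 to 6 higher and 0 to 3 lower. Between KD LPS and WT LPS cells, 0 members higher became 3 with the replicate block, 1 with quantile normalization, 3 without arrays 2, and 0 to 2 with 1 array left out. Between KD LPS and WT unstimulated cells, 1 higher became 4 with the block, 2 without the lowest genes, 5 without arrays 2 and 1 to 2 with 1 array left out, and 2 lower became 1 with quantile normalization or an intensity trend, 4 without arrays 2 and 1 to 2. Genes called in the whole table were 2164, 152 and 2166 in the LPS, knockdown and KD LPS minus WT unstimulated comparisons, 548 for the knockdown comparison with the block, 4909, 668 and 3803 without arrays 2, and 891 to 3424, 18 to 383 and 1054 to 2602 with 1 array left out. Among these single omissions, the highest LPS count came without WT LPS array 2 and the lowest without WT LPS array 3. The block changed no member call other than those given above. The calls of Ch25h after LPS, and of Ch25h and Ebp between KD LPS and WT unstimulated cells, held under every alternative. Small differences changed sign: Ggps1 after LPS became 0.07 with quantile normalization. Without arrays 2, knockdown differences became 0.01 for Mvk, 0.01 for Msmo1, 0.02 for Ebp and -0.10 for Mylip, and KD LPS minus WT unstimulated differences became 0.02 for Sqle, 0.02 for Insig1 and -0.35 for Dhcr7 (adjusted p = 0.0411). With 1 array left out, differences crossing 0 after LPS were those of Ggps1 (-0.18 to 0.05), Msmo1 (-0.09 to 0.09) and Mylip (-0.03 to 0.38). In the knockdown comparison they were Mvk (-0.15 to 0.02), Pmvk (-0.24 to 0.04), Idi1 (-0.28 to 0.05), Fdps (-0.10 to 0.03), Msmo1 (-0.18 to 0.06), Hsd17b7 (-0.38 to 0.09), Insig2 (-0.25 to 0.09), Mylip (-0.12 to 0.31), Stard4 (-0.21 to 0.10) and Apoe (-0.21 to 0.02). Between KD LPS and WT unstimulated cells they were Fdps (-0.01 to 0.15), Sqle (-0.18 to 0.12), Cyp51 (-0.04 to 0.35), Msmo1 (-0.18 to 0.05), Sc5d (-0.02 to 0.26), Dhcr7 (-0.25 to 0.16), Insig1 (-0.59 to 0.03) and Apoe (-0.04 to 0.16). The cause of these changes was not tested. With 3 arrays a group, small differences are poorly measured, and dim probes understate differences.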
